A study of Mus musculus with 6 samples.

Results

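The 40 genes described here carry out DNA replication or mitosis. They were taken by name from the deposited table of 51165 gene rows, 16 as replication genes and 24 as mitosis genes, and all 40 were found. All 40 were also among the 19795 genes that passed the filter on low counts (at least 10 counts in enough libraries). RNA was sequenced from isolated sinusoidal endothelial cells of the liver, which form the fenestrated wall of its sinusoids, the capillaries between the hepatocytes. The 6 libraries came from C57BL/6 mice aged 7 to 8 weeks, 3 from wild type mice (numbered 1, 3 and 4 in the labels) and 3 from mice of the genotype NICeCA (numbered 1, 2 and 3). Tamoxifen was injected intraperitoneally in both genotypes, so the wild type mice had the drug too, and the labels give Notch activation as its purpose. The promoter or recombinase that drives the NICeCA allele is not given in the sources used here. Whether the libraries of a group stem from separate animals is not stated, so p-values measure only the spread among these samples, and that spread may be technical.

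A cell copies its DNA in S phase and divides it in mitosis. In the phase before S, the MCM helicase is loaded at origins by Cdc6 and Cdt1, and E2F transcription factors and cyclin E drive the genes of S phase. Genes of mitosis are kept silent in resting cells by the DREAM complex and are switched on late in the cycle by B-Myb and Foxm1, largely through promoter elements named CHR and CCAAT. Sinusoidal endothelium of a healthy adult liver is mostly resting.

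Every one of the 24 mitosis genes had a higher fitted level in NICeCA than in wild type, by 1.21-fold to 2.34-fold, and the replication genes were divided. Of the 16 replication genes, 12 were fitted higher and 4 lower, from 0.867-fold to 2.35-fold. Over all tested genes 48.4% were fitted higher. None of the 40 passed edgeR's quasi-likelihood test at a Benjamini-Hochberg adjusted p of 0.05 over all tested genes, a level that 0.0253% of all genes passed upward, 0.0202% downward and 0.0455% in either direction. The smallest adjusted p among them was 0.139, for Kif23. At an unadjusted p of 0.05 in the same edgeR fit, 8 of the 40 were higher and 0 lower, beside 9.12% and 7.38% of all tested genes. DESeq2, run as an alternative, called 3 of the 40 higher (Kif23, Cdk1 and Cdt1) and 0 lower, beside 3.66% and 1.93% of all tested genes (5.59% in either direction).

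The median log2 fold change was 0.81 over the mitosis genes, 0.22 over the replication genes and -0.01 over all tested genes. In 15 of the 40 genes every NICeCA library lay above every wild type library in CPM (read counts scaled to a common library total), and in 0 every NICeCA library lay below. Over all tested genes these shares were 11.6% and 11.8%. The 15 comprise 11 of 24 mitosis genes and 4 of 16 replication genes. In these whole-isolate libraries, more dividing cells and more of these transcripts per cell cannot be told apart.

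**Figure D1:**
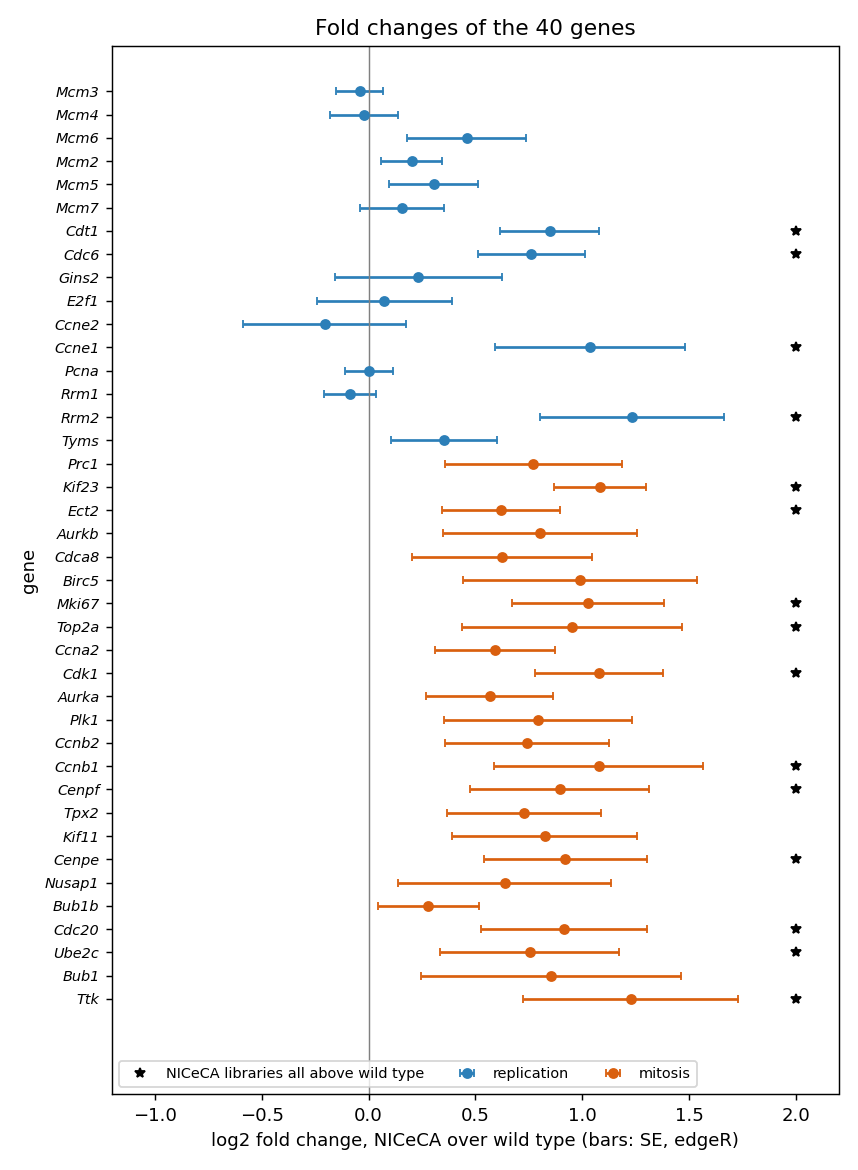
Log2 fold change of each of the 40 genes, NICeCA over wild type, from edgeR with its standard error as a bar (n = 3 libraries per group). Stars mark the 15 genes whose NICeCA libraries all lie above the wild type libraries; the 24 mitosis genes all lie right of 0 and Pcna, Mcm3, Mcm4 and Rrm1 lie at or close to it.

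The libraries had similar depth, with totals of 26254649 (wild type 3) to 30034191 counts (wild type 1). The 40 genes together took 10843 counts in wild type 4 and up to 20316 in NICeCA 1. Their mean counts per library ran from 28.5 (Ccnb1) to 2269 (Mcm3), and the lowest single count was 8. All 10 markers of liver sinusoidal endothelium were detected, Kdr at 3083 to 5014 CPM, and their sum was 21459 to 22776 CPM in wild type against 12309 to 19705 CPM in NICeCA. Counting by strand is not stated, and 10 of the 40 genes overlap a row on the other strand, among them Ccne2 with Ints8, Gins2 with Gse1, Prc1 with Rccd1 and Ccna2 with Exosc9, so reads of such partners may be included.

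Promoter sequences of 3 mitosis genes and 2 replication genes are printed because they show the elements whose shares are compared between the classes. RefSeq promoters (build GRCm38.p6, 250 bases before to 50 after the start) were available for 34 of the 40 genes. Capitals mark matches on either strand to 3 motifs: CHR, which is TTTGAA or TTCGAA; the CCAAT box, which is CCAAT; and the E2F motif, which is TTNNCGC. Matches of different or the same motifs may overlap and then form 1 longer capital run. Each sequence is the 200 bases before the start, read 5′ to 3′ on the gene's own strand. Mki67 lies at chr7:135716380-135716579 on the minus strand, Cdk1 at chr10:69352913-69353112 on the minus strand and Cdc20 at chr4:118437344-118437543 on the minus strand. Mcm5 lies at chr8:75109309-75109508 on the plus strand and Mcm6 at chr1:128359706-128359905 on the minus strand.
Mki67: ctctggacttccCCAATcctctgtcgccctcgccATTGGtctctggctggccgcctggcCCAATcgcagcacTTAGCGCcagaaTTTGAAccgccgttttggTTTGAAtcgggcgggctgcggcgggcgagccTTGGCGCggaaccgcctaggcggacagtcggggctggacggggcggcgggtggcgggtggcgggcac
Cdk1: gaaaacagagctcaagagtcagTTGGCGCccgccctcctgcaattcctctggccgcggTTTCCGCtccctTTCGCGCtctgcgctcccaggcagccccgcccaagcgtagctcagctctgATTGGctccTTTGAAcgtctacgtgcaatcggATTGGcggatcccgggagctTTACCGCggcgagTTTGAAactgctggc
Cdc20: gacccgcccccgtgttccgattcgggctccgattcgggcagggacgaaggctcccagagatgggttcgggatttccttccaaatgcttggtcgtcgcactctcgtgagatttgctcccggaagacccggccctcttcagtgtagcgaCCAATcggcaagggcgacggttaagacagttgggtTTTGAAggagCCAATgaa
Mcm5: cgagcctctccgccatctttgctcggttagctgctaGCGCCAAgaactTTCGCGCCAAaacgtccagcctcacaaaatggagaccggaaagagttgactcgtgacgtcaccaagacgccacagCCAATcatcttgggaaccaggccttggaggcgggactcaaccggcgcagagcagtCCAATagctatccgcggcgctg
Mcm6: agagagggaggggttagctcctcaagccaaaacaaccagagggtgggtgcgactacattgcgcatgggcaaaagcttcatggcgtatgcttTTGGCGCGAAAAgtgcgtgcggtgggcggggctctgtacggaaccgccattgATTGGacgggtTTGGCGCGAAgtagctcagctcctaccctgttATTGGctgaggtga

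The mitosis promoter windows were rich in CHR and CCAAT matches, and the replication windows in E2F matches. CHR was present in 17 of 21 mitosis genes (81%) and 2 of 13 replication genes (15.4%), beside 21.7% of 27025 mouse genes with a window. CCAAT was present in 19 of 21 mitosis genes and 8 of 13 replication genes, beside 41.1% of all. The E2F motif was present in 8 of 21 mitosis genes and 10 of 13 replication genes, beside 22.6% of all. Both CHR and CCAAT occurred in 17 of 21 mitosis genes, beside 8.61% of all genes. The split was weaker in the lists of other mitotic and other replication genes described below. CHR was present in 30 of 46 and 8 of 31 of these genes, and the E2F motif in 24 of 46 and 24 of 31. In the printed windows Mki67 holds 2 CHR, 3 CCAAT and 2 E2F matches, Cdk1 2, 2 and 4, and Cdc20 1, 2 and 0. Mcm5 holds 0 CHR, 2 CCAAT and 3 E2F matches and Mcm6 0, 2 and 5, so E2F matches do not part these 5 genes by class. A match describes the letters of the window and is no evidence of binding.

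Among the kinases and cyclins of entry into mitosis, all 6 genes had positive fold changes, and Cdk1 was the one that DESeq2 called. Cdk1, the kinase that drives mitosis, stood at 4.66, 7.89 and 3.53 CPM in wild type 1, 3 and 4 and at 11.8, 10.0 and 12.2 CPM in NICeCA 1, 2 and 3. The NICeCA libraries were close together and all above the wild type ones, of which wild type 3 was the highest. Its log2 fold change was 1.08 ± 0.30 (SE), with an adjusted p of 0.198 in edgeR and 0.0208 in DESeq2. Ccna2 encodes cyclin A2, which acts in S phase and in early mitosis. Its levels were 8.44, 17.1 and 8.77 CPM in wild type against 17.0, 16.7 and 18.0 CPM in NICeCA. Wild type 3 reached the NICeCA level, and the other wild type libraries lay far below it. Ccna2 had a log2 fold change of 0.59 ± 0.28 (SE, edgeR adjusted p = 0.347). Ccnb1, encoding cyclin B1, was the lowest of the 40 genes at 0.282, 1.07 and 0.541 CPM in wild type against 1.39, 1.18 and 1.43 CPM in NICeCA. The groups did not overlap, but wild type 1 rests on 8 counts. The remaining genes of this role were Ccnb2, encoding cyclin B2, and the mitotic kinases Aurka and Plk1, with log2 fold changes of 0.74, 0.57 and 0.79.

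Mki67 and Top2a, which act on the structure of chromosomes, showed the pattern of Cdk1 at higher levels. Mki67, which coats mitotic chromosomes and is the usual stain for cycling cells, stood at 36.7, 58.9 and 19.4 CPM in wild type against 82.3, 70.9 and 81.3 CPM in NICeCA. All NICeCA libraries were above all wild type libraries, and wild type 4 was the lowest. The log2 fold change of Mki67 was 1.03 ± 0.36 (SE), with an adjusted p of 0.237 in edgeR and 0.0559 in DESeq2. Top2a, the topoisomerase that untangles sister chromatids, stood at 11.4, 28.4 and 5.55 CPM in wild type against 29.2, 29.8 and 28.7 CPM in NICeCA. Wild type 3 came close to the NICeCA libraries, and wild type 4 was far below. The log2 fold change of Top2a was 0.95 ± 0.51 (SE, edgeR adjusted p = 0.405).

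Kif23 had the smallest p of all 40 genes. It encodes the kinesin of the central spindle that is needed for cytokinesis, and it stood at 5.08, 6.44 and 4.33 CPM in wild type against 10.7, 9.63 and 13.3 CPM in NICeCA. The lowest NICeCA library was well above the highest wild type one. Its log2 fold change was 1.08 ± 0.21 (SE), with an unadjusted p of 0.00144 and an adjusted p of 0.139 in edgeR, and DESeq2 gave an adjusted p of 0.00107. Prc1, which bundles the microtubules of the central spindle with Kif23, stood at 5.23, 11.1 and 3.43 CPM in wild type against 13.5, 10.7 and 9.40 CPM in NICeCA. Here wild type 3 lay inside the NICeCA range and the groups overlapped. Prc1 had a log2 fold change of 0.77 ± 0.41 (SE, edgeR adjusted p = 0.403). Ect2, the activator of RhoA in cytokinesis, and Aurkb, Birc5 and Cdca8 of the chromosome passenger complex had log2 fold changes between 0.62 and 0.99. Of these 4 genes Ect2 alone had no overlap between groups.

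The spindle genes Cenpf, Tpx2, Cenpe, Kif11 and Nusap1 all had positive fold changes, and none was called by edgeR or DESeq2. Cenpf, a large protein of the outer kinetochore, stood at 8.86, 17.6 and 4.80 CPM in wild type against 18.9, 21.5 and 17.7 CPM in NICeCA. Wild type 3 fell just short of the lowest NICeCA library. Tpx2, which activates Aurora A on the spindle, stood at 4.94, 11.0 and 4.22 CPM in wild type against 12.1, 11.1 and 10.1 CPM in NICeCA. Wild type 3 lay inside the NICeCA range, and the other wild type libraries lay below it. Cenpe, a kinesin that moves chromosomes to the spindle equator, stood at 2.72, 7.13 and 2.99 CPM in wild type against 8.75, 8.31 and 7.24 CPM in NICeCA. The groups did not overlap, though wild type 3 came close to the lowest NICeCA library. The log2 fold changes were 0.89 ± 0.42 for Cenpf, 0.73 ± 0.36 for Tpx2 and 0.92 ± 0.38 for Cenpe (SE).

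The 5 genes of the spindle checkpoint and the anaphase-promoting complex held both the largest and the smallest fold change of the mitosis genes. Ttk, the checkpoint kinase Mps1, stood at 0.424, 1.49 and 0.505 CPM in wild type against 1.95, 1.69 and 2.03 CPM in NICeCA. All NICeCA libraries were above wild type, with 12 to 39 counts in the wild type libraries. Bub1b, which encodes the checkpoint protein BubR1, stood at 12.7, 15.9 and 8.44 CPM in wild type against 17.0, 14.3 and 13.7 CPM in NICeCA. Wild type 3 was above 2 of the NICeCA libraries. Their log2 fold changes were 1.23 ± 0.50 for Ttk and 0.28 ± 0.24 for Bub1b (SE). Cdc20, the activator of the anaphase-promoting complex, stood at 4.45, 9.43 and 3.14 CPM in wild type against 9.94, 10.0 and 12.1 CPM in NICeCA. The groups did not overlap, and wild type 3 came close to the NICeCA libraries. Cdc20 had a log2 fold change of 0.91 ± 0.39 (SE, edgeR adjusted p = 0.304). Ube2c, the ubiquitin-conjugating enzyme of the same complex, and Bub1, a checkpoint kinase, had log2 fold changes of 0.76 and 0.86.

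**Figure D2:**
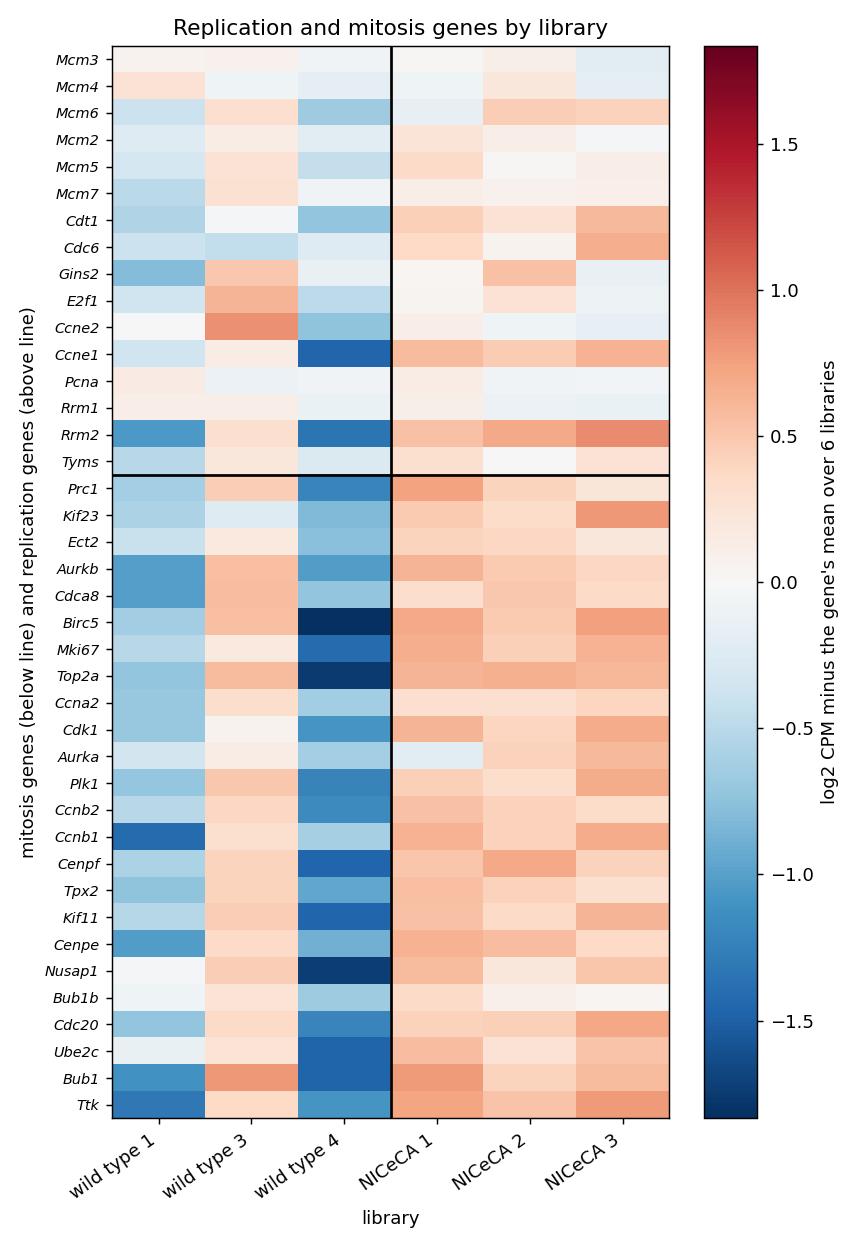
Log2 CPM (prior count 2) of each of the 40 genes in each library minus the gene's mean over the 6 libraries, with replication genes above and mitosis genes below the horizontal line. Wild type 1 and 4 are blue and wild type 3 is red over nearly all mitosis genes. Over the mitosis genes the NICeCA columns are red except for Aurka in NICeCA 1. Among replication genes the colours are mostly paler and are mixed in both groups, with Rrm1 blue in NICeCA 2 and 3, for example.

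Of the genes that load and form the replicative helicase, 7 of 9 had a positive fold change, and DESeq2 called 1, Cdt1. Mcm3, one of the 6 subunits of the MCM helicase, stood at 82.2, 83.1 and 75.6 CPM in wild type against 80.0, 84.8 and 69.4 CPM in NICeCA. The groups overlapped throughout. Mcm4, another subunit, stood at 46.0, 36.1 and 34.0 CPM in wild type against 36.1, 44.3 and 34.0 CPM in NICeCA. The highest library was a wild type one. The log2 fold changes were -0.04 ± 0.11 for Mcm3 and -0.02 ± 0.16 for Mcm4 (SE), with edgeR adjusted p of 0.890 and 0.965. Over Mcm2 to Mcm7 the median log2 fold change was 0.18 and the highest was 0.46 (Mcm6). In 0 of the 6 genes did all NICeCA libraries lie above wild type, beside 11.6% of all tested genes. For so few genes, a count of 0 is near that share.

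Cdt1, which loads the helicase together with Cdc6, stood at 4.38, 6.40 and 3.90 CPM in wild type against 8.81, 7.80 and 9.80 CPM in NICeCA. All NICeCA libraries were above all wild type libraries. The log2 fold change of Cdt1 was 0.85 ± 0.23 (SE), with an adjusted p of 0.197 in edgeR and 0.0293 in DESeq2. Cdc6 stood at 2.12, 2.03 and 2.38 CPM in wild type against 3.63, 2.94 and 4.52 CPM in NICeCA. The groups did not overlap, and wild type 3 was the lowest library, unlike in most of these genes. Cdc6 had a log2 fold change of 0.76 ± 0.25 (SE, edgeR adjusted p = 0.225; DESeq2 adjusted p = 0.125). Gins2, a subunit of the GINS complex that activates the helicase, had a log2 fold change of 0.23.

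The sliding clamp and the enzymes of nucleotide supply also divided. Pcna, the clamp that holds polymerases on DNA, stood at 75.9, 63.4 and 65.4 CPM in wild type against 74.6, 64.9 and 65.5 CPM in NICeCA. The ranges were nearly the same. Rrm1, the large subunit of ribonucleotide reductase, stood at 34.5, 34.5 and 29.2 CPM in wild type against 34.1, 29.4 and 29.2 CPM in NICeCA. Its groups overlapped as well. Rrm2, the small subunit of the same enzyme, whose supply is tied to S phase, stood at 2.44, 6.25 and 1.98 CPM in wild type against 7.43, 8.31 and 9.33 CPM in NICeCA. Here all NICeCA libraries were above all wild type libraries. The log2 fold change was 0.00 ± 0.11 for Pcna, -0.09 ± 0.12 for Rrm1 and 1.23 ± 0.43 for Rrm2 (SE). For Rrm2 the adjusted p was 0.240 in edgeR and 0.0667 in DESeq2. Tyms, which makes thymidylate, had a log2 fold change of 0.35.

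The regulators of entry into S phase did not move together. E2f1, a transcription factor that drives S phase genes, stood at 5.79, 11.6 and 5.37 CPM in wild type against 7.79, 9.09 and 7.04 CPM in NICeCA. Wild type 3 was the highest of the 6 libraries. Ccne2, encoding cyclin E2, stood at 6.00, 10.8 and 3.57 CPM in wild type against 6.57, 5.71 and 5.41 CPM in NICeCA, and wild type 3 was again the highest. Ccne1, encoding cyclin E1, stood at 0.847, 1.23 and 0.361 CPM in wild type against 1.68, 1.55 and 1.76 CPM in NICeCA. For Ccne1 the NICeCA libraries all lay above wild type. The log2 fold changes were 0.07 ± 0.32 for E2f1, -0.21 ± 0.38 for Ccne2 and 1.04 ± 0.44 for Ccne1 (SE), with edgeR adjusted p of 0.938, 0.833 and 0.306.

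Levels per gene length set the replication genes apart in another way. By the deposited RPKM (CPM of the unscaled total, divided by the gene length in kilobases), 8 replication and 2 mitosis genes had a mean above 5 RPKM over the 6 libraries. Pcna was the highest at 54.1 RPKM, Mcm3 followed at 27.4 RPKM, and the highest mitosis gene was Mki67 at 5.83 RPKM. Median levels were 4.13 RPKM over the replication genes and 2.11 RPKM over the mitosis genes. The 8 replication genes above 5 RPKM had log2 fold changes of -0.09 to 0.46 with a median of 0.08, and the 8 at or under it had a median of 0.56. The limit of 5 RPKM was chosen after the values were seen, so this is a description.

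**Figure D3:**
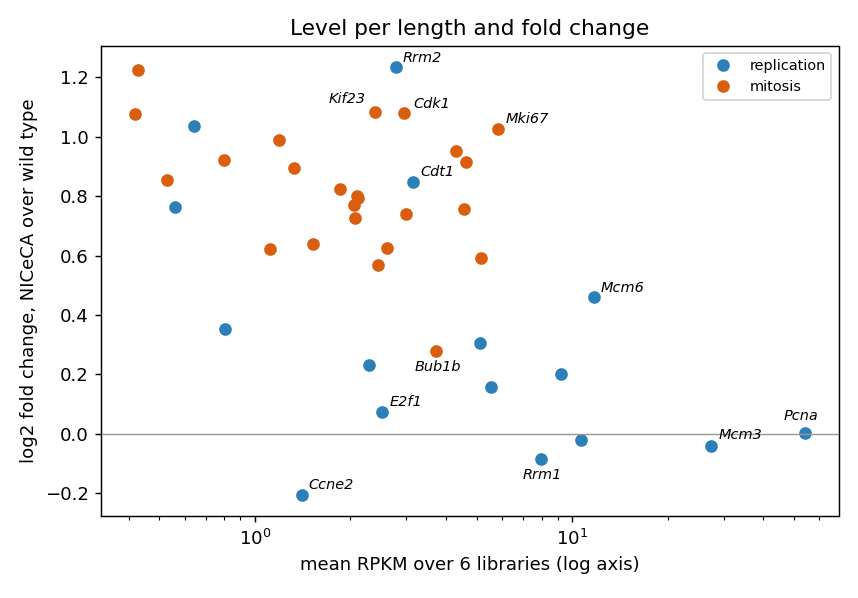
Log2 fold change (NICeCA over wild type, edgeR) of each of the 40 genes against its mean RPKM over the 6 libraries, on a log axis. The replication genes with the highest level per length, Pcna at 54.1 RPKM and Mcm3 at 27.4 RPKM, lie close to 0, and the mitosis genes lie between 0.28 and 1.23.

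Within each library, mitosis genes were set against replication genes by taking the median over each class of log2 CPM minus the gene's mean over the 6 libraries. The mitosis median was -0.66, 0.37 and -1.12 in wild type 1, 3 and 4 against 0.56, 0.42 and 0.55 in NICeCA 1, 2 and 3. The replication median was -0.37, 0.18 and -0.25 in wild type against 0.13, 0.11 and 0.02 in NICeCA. Mitosis genes thus lay further from their mean than replication genes in every library, below it in wild type 1 and 4 and above it in the other libraries. Mitosis minus replication was -0.30, 0.19 and -0.87 in wild type against 0.43, 0.31 and 0.53 in NICeCA. The NICeCA libraries were all higher on this scale, by 0.12 between the lowest NICeCA and the highest wild type library. This gap was 0.033 without wild type 1, 0.65 without wild type 3, 0.049 without wild type 4 and 0.26 without NICeCA 2. The group means were -0.33 ± 0.53 and 0.42 ± 0.11 (SD, n = 3), a difference of 0.75 on the log2 scale. Without wild type 4 the difference was 0.37 and without wild type 3 it was 0.99. It is a description of genes chosen with the data known and carries no p.

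Summed over the class, the mitosis genes took 138, 256 and 90.1 CPM in wild type against 299.7, 277 and 294 CPM in NICeCA. The replication genes took 339, 375 and 301.0 CPM in wild type against 371, 377 and 351 CPM in NICeCA. Mitosis genes made up 29.0%, 40.6% and 23.0% of both sums in wild type against 44.7%, 42.4% and 45.6% in NICeCA. Wild type 3 was nearest to the NICeCA libraries in each of these measures and lay inside their range for the replication sum. The mean mitosis sum was 162 ± 85.4 CPM in wild type against 290.3 ± 11.9 CPM in NICeCA (SD, n = 3), which is 1.80-fold higher. The mean replication sum was 338 ± 37.2 CPM in wild type against 366 ± 13.8 CPM in NICeCA (SD, n = 3), which is 1.08-fold higher.

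**Figure D4:**
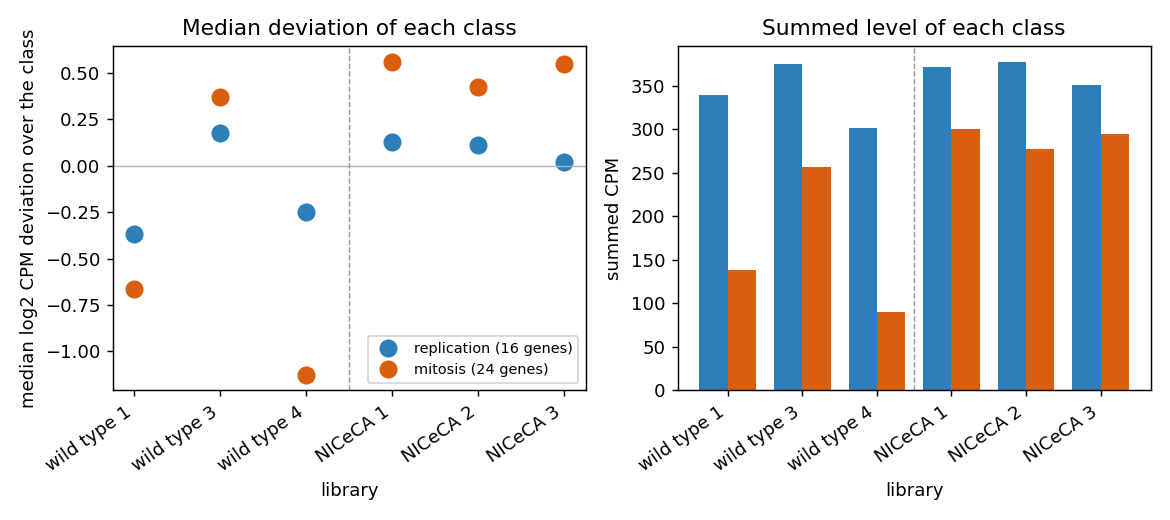
Left, median over the 16 replication and the 24 mitosis genes of log2 CPM minus each gene's mean, by library; right, summed CPM of each class by library. The mitosis sums run from 90.1 to 256 CPM in wild type and from 277 to 299.7 CPM in NICeCA, and the replication sums from 301.0 to 375 CPM and from 351 to 377 CPM.

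The 3 wild type libraries did not share 1 level of the mitosis genes. Wild type 3 was the highest wild type library in 24 of 24 mitosis genes and 12 of 16 replication genes, beside 31.2% of all tested genes. Wild type 4 was the lowest of the wild type libraries in 19 of 24 mitosis genes and 10 of 16 replication genes, beside 33.6% of all. Wild type 1 and 4 both lay below every NICeCA library in 24 of 24 mitosis genes and 11 of 16 replication genes, beside 15.2% of all. Wild type 3 reached or passed the lowest NICeCA library in 13 of 24 mitosis genes and passed all NICeCA libraries in 2, beside 13616 and 6532 of the 19795 tested genes. The SD of log2 CPM between libraries was larger in wild type than in NICeCA for 23 of 24 mitosis genes and 14 of 16 replication genes, beside 53.6% of all tested genes. The median SD was 0.84 in wild type and 0.14 in NICeCA over the mitosis genes, and 0.24 and 0.23 over all tested genes. The number of these genes that DESeq2 called turned on 1 library. With wild type 3 left out it called 21 of the 40 genes, all higher in NICeCA, among 610 of 20579 tested genes. With any other single library left out it called 1, which was Kif23 each time. Those runs called from 386 of 20104 to 1455 of 20469 tested genes in all, so a count of 1 of 40 does not stand apart from all genes. The edgeR test called 0 of the 40 with any single library left out, beside 0 to 14 genes in all.

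Cells other than endothelium also differed between the libraries, and their part in the levels of the mitosis genes was not tested. The summed late neutrophil markers (S100a8, S100a9 and 5 others) were 127 to 2670 CPM in wild type against 2872 to 15339.5 CPM in NICeCA, and 7 of 7 had positive fold changes. Neutrophil precursor markers such as Elane and Prtn3, which belong to a dividing stage, summed to 0.192 to 1.59 CPM in wild type against 9.18 to 55.3 CPM in NICeCA, with 5 of 5 tested markers positive. B cell markers summed to 4.68 to 12.3 CPM and 17.9 to 23.4 CPM (6 of 6 positive), and T and NK cell markers to 5.70 to 37.6 CPM and 17.7 to 84.6 CPM (8 of 8 positive). The neutrophil precursor marker Ctsg had 2, 0 and 1 counts in wild type, and the B cell marker Ms4a1 had 9, 4 and 0. Both could pass the filter on low counts only through NICeCA libraries, so their positive signs were fixed in advance. Other markers with few wild type counts may share this limit. Within NICeCA the neutrophil precursor sum ran from 9.18 CPM in NICeCA 1 to 55.3 CPM in NICeCA 3, and the mitosis sum was 299.7 and 294 CPM in the same libraries. Wild type 3 had the lowest late neutrophil, neutrophil precursor and B cell sums of the 6 libraries and the highest mitosis sum of the wild type ones. Kupffer cell markers (Clec4f, Cd5l and 3 others) summed to 56.0, 76.8 and 1196 CPM in wild type against 887, 627 and 89.7 CPM in NICeCA. B lineage precursor markers summed to at most 0.345 CPM in every library, with Igll1, Rag1 and Rag2 listed at 0, and erythroid precursor markers to 24.2 to 33.7 CPM, most of it Epor. Hepatocyte markers such as Alb summed to 419.7 to 739 CPM in wild type against 357 to 704 CPM in NICeCA (2 of 6 positive). Stellate cell markers such as Dcn summed to 518 to 828 CPM against 433 to 512 CPM (2 of 6 positive). The stellate markers did not move together. Dcn had a log2 fold change of -0.73, and Col1a1, named after its values were seen, had 2.08. Cholangiocyte markers such as Spp1 summed to 260.1 to 724 CPM against 106 to 816 CPM (3 of 5 positive). Of the 5 megakaryocyte and platelet markers, Itga2b and Gp9 were detected in every library and the list summed to 7.51 to 15.8 CPM in wild type against 13.3 to 14.8 CPM in NICeCA. Pf4, Ppbp and Gp1bb were listed at 0 in every library, and whether such zeros, here and in the B lineage list, come from the counting is not known. None of the 10 markers of sinusoidal endothelium had a positive fold change, and 4 of 5 Kupffer cell markers did.

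**Figure D5:**
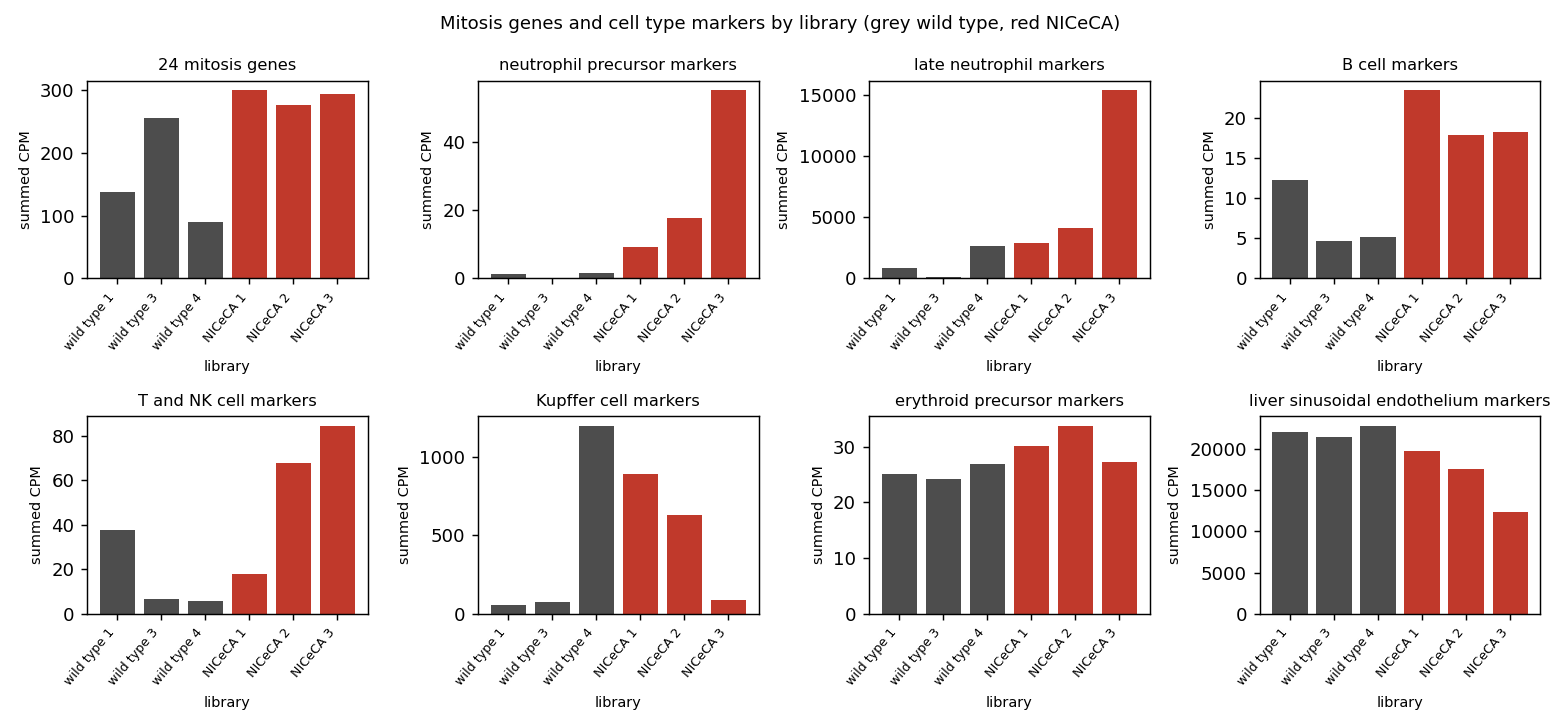
Summed CPM of the 24 mitosis genes and of marker genes of 7 cell types in each library, wild type in grey and NICeCA in red, each panel on its own scale from 0. Late neutrophil markers run from 127 to 2670 CPM in wild type and from 2872 to 15339.5 CPM in NICeCA. The mitosis genes run from 90.1 to 256 CPM and from 277 to 299.7 CPM. A link between them was not tested.

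Other genes of the same processes, chosen by function with earlier results of these data known, were divided between the processes too. They were read in the same 6 libraries and are no separate test. Over all tested genes 48.4% had a positive fold change. Of 52 other mitotic genes, 47 had a positive fold change, the median log2 fold change was 0.74, and edgeR called 0 at the adjusted threshold. Of 38 other replication genes tested, 26 were positive, the median was 0.11, and edgeR again called 0. DESeq2 called 6 of the other mitotic genes higher and 0 lower, and 0 of the other replication genes higher and 1 lower, beside 3.66% higher and 1.93% lower over all tested genes. Unadjusted edgeR p-values were under 0.05 for 12 other mitotic genes, all higher, and for 3 other replication genes, 2 of them higher, beside 9.12% higher and 7.38% lower over all. The 2 of 38 higher replication genes are a smaller share (5.26%) than that over all tested genes. Cdc45, a partner of the MCM helicase, was listed at 0 in every library and was not tested; whether this zero comes from the counting is not known.

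Casc5, the kinetochore scaffold, stood at 1.38, 1.42 and 1.01 CPM in wild type against 2.94, 3.14 and 2.79 CPM in NICeCA. The groups were well apart and wild type 3 lay close to wild type 1. Casc5 had a log2 fold change of 1.22 ± 0.26 (SE), with an adjusted p of 0.155 in edgeR and 0.00683 in DESeq2. Kif15 (a spindle kinesin), Melk (a mitotic kinase) and Ncaph (a condensin subunit) were also called by DESeq2, with log2 fold changes of 1.37, 1.64 and 1.04. Cdca3 and Cdc25b, the other two that DESeq2 called, are named after their values were seen. At the other end, Cit, the citron kinase of cytokinesis, and Cenpk, a centromere protein, had log2 fold changes of -0.17 and -0.10.

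Rpa1, which coats single-stranded DNA at forks, was the replication gene that DESeq2 called lower. It stood at 120.4, 133 and 96.7 CPM in wild type against 63.2, 85.8 and 81.8 CPM in NICeCA. All NICeCA libraries were below all wild type libraries. Its log2 fold change was -0.60 ± 0.17 (SE), with an adjusted p of 0.197 in edgeR and 0.0460 in DESeq2. Pole (DNA polymerase epsilon), Uhrf1 (which guides DNA methylation at forks) and Tk1 (thymidine kinase) had log2 fold changes of 0.73, 0.91 and 0.76, and none was called. Orc1, of the complex that marks origins, had a log2 fold change of -0.19.

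Of 20 genes of the E2F family, the DREAM complex and related regulators, 13 (65%) were positive, beside 48.4% of all tested genes. Their median log2 fold change was 0.13. The edgeR test called 0 of the 20, beside 0.0455% of all tested genes in either direction. DESeq2 called 1 of the 20, beside 5.59% in either direction, so neither count stands apart from all genes. The 1 called was E2f2, a transcription factor of the E2F family. E2f2 stood at 5.51, 5.17 and 7.61 CPM in wild type against 11.5, 18.2 and 42.8 CPM in NICeCA. NICeCA 3 was far above the other libraries. That library also held the highest neutrophil, T and NK cell sums and the lowest endothelial sum, and any link to E2f2 was not tested. E2f2 had a log2 fold change of 1.99 ± 0.48 (SE), with an adjusted p of 0.177 in edgeR and 0.000933 in DESeq2. Foxm1, an activator of mitotic genes, stood at 5.51, 12.8 and 3.25 CPM in wild type against 18.0, 15.1 and 15.2 CPM in NICeCA. Its groups did not overlap, and wild type 3 was the highest wild type library as for the mitosis genes. Foxm1 had a log2 fold change of 1.17 ± 0.45 (SE, edgeR adjusted p = 0.274). Mybl2, which encodes B-Myb, had a log2 fold change of 0.34 ± 0.23 (SE, edgeR adjusted p = 0.498). The groups overlapped for Mybl2, which is named after its values were seen. Tfdp1, a dimer partner of E2F proteins, had a log2 fold change of 0.74, and Lin52, a subunit of the DREAM core, and Tfdp2, a second dimer partner, had -0.38 and -0.33.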

How the data were processed

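RNA sequencing libraries of 3 wild type and 3 NICeCA isolates were read as paired reads on the Illumina platform, per the labels' protocols. The authors deposited 1 table with raw read counts per gene, and RPKM values beside them, 1 column per library, per the file headers. The deposited RPKM equal count divided by gene length and library total (largest relative gap 5e-06 over values of 50 counts or more). How reads were aligned and counted, the genome build and the handling of strand: not given in the sources used here.

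Count tests used edgeR 4.0.16 under R 4.3.3. The filter was filterByExpr with a minimum count of 10, libraries were scaled by TMM, and groups were compared with glmQLFit and glmQLFTest after estimateDisp, with Benjamini-Hochberg adjustment over all 19795 tested genes and a threshold of 0.05. The root of the common dispersion was 0.283. CPM use the TMM-scaled totals, and log2 CPM a prior count of 2. The standard error of a log2 fold change is its size over the root of the F statistic. DESeq2 1.42.0, other scalings, no filter, a robust prior, the replicate block and leaving out each library were alternatives. DESeq2 with a library left out, the no-overlap count and the histone genes were chosen after seeing the data. Scripts were tested on simulated data.

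The genes, lists and tests were chosen with earlier results of these data known. Values in every library are given for the 2 genes of highest mean CPM in each of 8 roles, the 10 with the smallest edgeR p, the lowest gene and those called by DESeq2. Other lists name up to 4 genes of smallest p and 2 of lowest fold change, and marker lists name the 2 of highest CPM.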

Additional observations from a re-analysis of the deposited data

How the results depend on the processing

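With edgeR, 0 of the 40 genes were called under every alternative run. These were RLE or upper quartile scaling, no filter, a robust prior, leaving out any single library and the replicate block, which had little power. All 24 mitosis genes stayed positive in these and under DESeq2. DESeq2 called 3 of the 40, 6 other mitotic genes, 1 other replication gene, 1 regulator and 1107 genes in all, against 9 in all with edgeR. Without the filter edgeR called 111 genes in all. With 1 library left out, edgeR called 0 to 14 genes in all and DESeq2 386 to 1455. Over both tools the calls then ran from 0 to 21 of the 40, from 0 to 28 other mitotic genes, from 0 to 3 other replication genes and from 0 to 3 regulators. The median log2 fold change ran from 0.44 to 1.19 over the 40 genes, 0.47 to 1.44 over mitosis genes and 0.12 to 0.53 over replication genes, with the maximum without wild type 3 in each. Mitosis minus replication differed between groups by 0.37 to 0.99, and the gap between lowest NICeCA and highest wild type library was 0.033 to 0.65. The causes of these moves were not tested.

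Among the 40 genes and the alternatives run, signs turned in replication genes alone. Pcna was at -0.00092 with upper quartile scaling and at -0.0052 without the filter. With 1 library left out, log2 fold changes ran from -0.069 to 0.088 for Pcna, -0.11 to 0.040 for Mcm3, -0.15 to 0.12 for Mcm4, -0.026 to 0.36 for Mcm7, -0.049 to 0.62 for Gins2, -0.13 to 0.51 for E2f1 and -0.52 to 0.30 for Ccne2.

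The labels number libraries 1 and 3 in both groups. Their deviations from the group means correlated at -0.213 and -0.246, so the numbers were not read as pairs. With the replicate block edgeR called 0 genes in all, the smallest adjusted p of the 40 was 0.613, and E2f1 was at -0.15. Log2 fold changes of up to 1.23 did not pass the adjusted threshold in edgeR with 3 libraries a group.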

Other observations

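Replication-dependent histone genes are transcribed in S phase, so the Hist1 and Hist2 rows of the table were read too. These rows were chosen after the data were seen. How fully these libraries captured such transcripts was not tested, so similar sums do not show that S phase was equal between the groups. Of 65 rows, 7 were at 0 in every library and 15 were tested. Their summed level was 62.9, 70.5 and 70.8 CPM in wild type 1, 3 and 4 and 70.0, 78.2 and 69.6 CPM in NICeCA 1, 2 and 3, so the groups overlapped. Hist1h1c, Hist1h2bc and Hist2h2be held 77.8% to 82.9% of these counts. Whether the levels of these rows follow S phase in these cells was not tested, so the sum is no measure of S phase. The other rows summed to 12.1, 15.5 and 13.8 CPM in wild type against 13.9, 13.3 and 15.4 CPM in NICeCA, again with overlap. Of the 15 tested, 7 had a positive and 8 a negative fold change, with a median log2 fold change of -0.05, and neither edgeR nor DESeq2 called any. Unadjusted edgeR p-values were under 0.05 for 1 of them, higher in NICeCA, beside 9.12% higher over all tested genes. Many histone genes are near-identical copies whose reads could be divided between rows, so single rows are uncertain.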
